A study of Mus musculus with 11 samples.

Results

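Reprogramming cassettes that encode a long, N-terminally extended form of the transcription factor Klf4 were compared with cassettes that encode its short form. Each cassette carries several of the factors Oct4 (Pou5f1), Sox2, Klf4 and c-Myc on a single transcript. The long side held OSKM, OK+9MS, MKOS and OKN-HAMS, the last of which carries an HA tag at its Klf4, and the short side held OKMS, STEMCCA, EB-C5 and WTSI. These 8 of the 11 arrays of the study were chosen by the Klf4 form of the cassette. The labels name the longer form for OK+9MS and the tag for OKN-HAMS. For the other cassettes the form is the one the study's paper is recorded to give, which could not be checked here.

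All 11 arrays came from mouse embryonic fibroblasts (MEFs) of male embryos at 13.5 days post coitum that carried the ROSA-rtTA transactivator and a Nanog-GFP reporter, the F1 offspring of a C57Bl6 backcross mother and a C57Bl6/129SV father with the reporter as a BAC transgene. Every cassette was delivered as a piggyBac transposon (PB-TAC) with the transposase plasmid pCyL43, was switched on with doxycycline at 1 ug/mL, and co-expressed the red protein mCherry. The 8 cassettes and 2 constructs with Klf4 alone, Klf4S (short) and Klf4L (long), were harvested on day 6 as cells sorted for mCherry. The remaining array held lacZ, harvested on day 2 without a sort. Transposons insert at many places in the genome, so each array is a mixed population of transfected cells and not a clone. Each cassette was measured once, on 1 Affymetrix mouse gene array, and the values are log2 expression values made with RMA. The 4 arrays of a side are thus different cassettes that share a Klf4 form, and every p-value below measures the spread between such cassettes and not between repeated cultures. Factor order, as the cassette names spell it, and other parts of the constructs also differ. In the comparison of the 2 sides they cannot be told apart from the Klf4 form. OK+9MS and OKMS spell the same order and differed by at least 2-fold in 634 genes, with 1 array each and no test.

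Klf4 is a zinc-finger protein that binds GC-rich promoter elements. In the body it is best known from the skin and the gut, where it acts late in epithelial differentiation and is required in the mouse for the barrier of the epidermis. When fibroblasts are reprogrammed, they pass early through a mesenchymal-to-epithelial transition, in which junction proteins and keratins appear, and Klf4 is known to bind and activate epithelial genes such as Cdh1 in that step. Keratins form the intermediate filaments of epithelia, of which Krt8 and Krt18 serve simple epithelia, Krt5 and Krt14 the basal epidermis, and Krt6a, Krt16 and Krt17 stressed or activated epidermis. The cornified envelope is the cross-linked protein shell that replaces the membrane of the outermost keratinocytes.

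The array medians ran from 7.188 to 7.269. Fibroblast markers were high on all 8 cassette arrays, Col1a1 between 11.92 and 12.87 and Vim between 13.38 and 13.73, so the labelled cell type was seen on both sides. The defining markers of leukocytes, endothelium and muscle were at the low end, with Ptprc at 5.59 to 5.79, Cdh5 at 6.39 to 6.57 and Myog at 6.64 to 6.86. Cd68 (8.11 to 9.62) was not. Among the neuronal markers Dcx was low (5.86 to 7.23), while Tubb3 (7.61 to 11.00) and Stmn2 (10.69 to 13.05) were not. Stmn2 also read 11.07 in lacZ, 11.37 in Klf4S and 11.47 in Klf4L. The Klf4 signal itself read 9.999 in OSKM, 9.81 in OK+9MS, 9.65 in MKOS and 10.19 in OKN-HAMS, against 9.94 in OKMS, 9.64 in STEMCCA, 9.90 in EB-C5 and 10.20 in WTSI. The sides overlapped, with a long minus short difference of -0.01 ± 0.15 (SE, limma adjusted p = 0.987), and Pou5f1 (0.05), Sox2 (-0.26) and Myc (0.30) overlapped as well. On the cassette arrays Sox2 read 6.22 to 7.76, against 6.79 in lacZ, 6.24 in Klf4S and 6.33 in Klf4L. Pou5f1 read 11.89 to 13.22, against 6.09 in lacZ, 6.06 in Klf4S and 5.84 in Klf4L. Klf4 read 9.47 in lacZ and Myc 9.54. Whether the probes read the cassette, the endogenous gene or both was not established. These readings are thus not levels of the transgenes alone and do not show equal factor levels on both sides. In populations of cells such as these, fewer cells of a type and less RNA per cell cannot be told apart.

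With long Klf4, 5 of 11 basal and stress keratins, 4 of 7 simple-epithelial keratins and 8 of 20 cornified envelope genes were higher. So were 6 of 13 desmosome and gap junction genes and 12 of 28 epithelial adhesion genes. None of 28 fibroblast genes, 1 of 18 early and none of 23 late pluripotency genes passed the test. Of 19938 genes, 504 (2.53%) passed limma's test at a Benjamini-Hochberg adjusted p under 0.05. With long Klf4, 403 were higher (2.02% of all genes) and 101 lower (0.507%). The higher genes also moved farther: 231 of the 403 differed by at least 2-fold, 89 by at least 4-fold and 30 by at least 8-fold, with a median log2 difference of 1.13. Of the 101 lower genes 19 reached 2-fold, 2 reached 4-fold and none reached 8-fold, with a median of -0.61. Whether called or not, 1.93% of all genes exceeded the short side by 2-fold or more and 0.276% lay below it by as much. In 5.19% of all genes every long cassette lay above every short one, and in 3.71% every long one lay below. Over all genes the median difference was -0.02, and a side's mean under 6 was treated as background, which made 25 of the 403 differences and 3 of the 101 lower bounds in size.

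These counts depended on which cassettes entered. The total was 167 without OSKM, 162 without OK+9MS, 217 without EB-C5, 299 without OKMS and 304 without WTSI. It was 376 without OKN-HAMS, 417 without STEMCCA and 613 without MKOS. OKMS, OK+9MS and OKN-HAMS share a base cassette by their names, and without these 3 the test, then with 2 cassettes against 3, called 53 genes, of which 50 were higher with long Klf4. Of those 50, 48 were among the 403.

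Over all genes the first principal component of the 8 arrays took up 45.2% of their variance and separated the sides, with scores from 15.8 (MKOS) to 33.4 (OSKM) for long Klf4 and from -32.8 (EB-C5) to -18.0 (OKMS) for short Klf4. The second, with 22.8%, ran across the sides: STEMCCA (29.6) and MKOS (28.7) lay at one end and OKMS (-17.9) and OKN-HAMS (-25.1) at the other. Pairs of cassettes of opposite sides differed by at least 2-fold in 466 to 1256 genes (median 800 over 16 pairs). Within the long side the count was 59 to 822 (median 263.5 over 6 pairs), and within the short side 183 to 657 (median 481 over 6 pairs). OSKM and OK+9MS were the closest pair of all, with 59 genes, although they differ in factor order by name. MKOS and OKN-HAMS, both long, differed in 822 genes, more than MKOS and STEMCCA of opposite sides, which differed in 466.

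**Figure D1:**
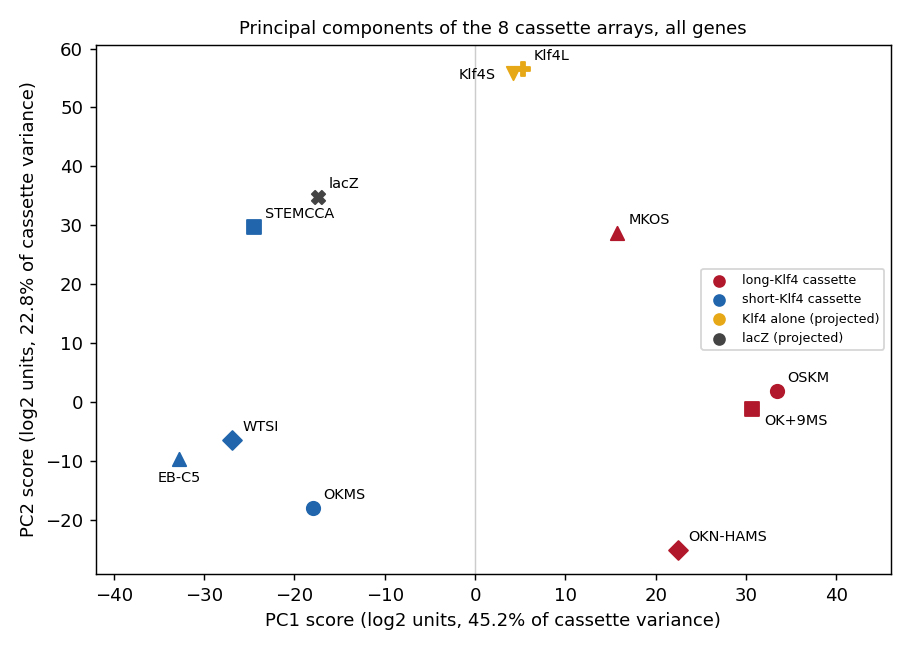
Scores of each array on the first 2 principal components of the 8 cassette arrays (log2 units, all 19938 genes); the Klf4 alone and lacZ arrays were projected on these axes and did not set them. The 4 long-Klf4 cassettes lie right of 0 on the first component and the 4 short-Klf4 cassettes left of it, and MKOS and STEMCCA lie together at the upper end of the second.

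Stress and basal keratins held the largest differences. Krt17 read 13.18 in OSKM, 12.90 in OK+9MS, 12.17 in MKOS and 12.84 in OKN-HAMS, against 9.21 in OKMS, 6.96 in STEMCCA, 7.23 in EB-C5 and 7.47 in WTSI. Every long-Klf4 cassette lay above every short one, and OKMS was the highest of the short side by far. The difference was 5.06 ± 0.49 on the log2 scale (SE, 4 against 4 arrays, limma adjusted p = 0.0031), or 33.3-fold. Krt14, a keratin of the basal layer, read 12.48 in OSKM, 12.42 in OK+9MS, 10.57 in MKOS and 12.34 in OKN-HAMS, against 7.45 in OKMS, 6.76 in STEMCCA, 6.91 in EB-C5 and 6.97 in WTSI. MKOS was the lowest of the long side and still stood about 3 log2 units above the highest short cassette. The difference was 4.93 ± 0.43 (adjusted p = 0.00204). Krt16 (4.28 ± 0.35) and Krt6a (4.05 ± 0.32, a lower bound since the short side averaged 5.82) were higher too. In both, every long array lay above every short one. Without the 3 cassettes built on OKMS, Krt17 and Krt6a stayed called and Krt14 and Krt16 did not. Krt5, the usual basal partner of Krt14, was near the array median on all 8 arrays, at 7.14 to 7.41 with long and 6.85 to 7.15 with short Klf4 (difference 0.34, adjusted p = 0.128). Of the 11 measured genes in the list of basal and stress keratins 5 were called higher and none lower, with a median of 2.78.

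Krt6b departed from its relatives. It read 11.28 in OSKM, 12.27 in OK+9MS, 6.79 in MKOS and 12.28 in OKN-HAMS, against 11.37 in OKMS, 7.84 in STEMCCA, 5.96 in EB-C5 and 6.07 in WTSI. OKMS was as high as OSKM, and MKOS was nearer to STEMCCA, EB-C5 and WTSI than to the other long cassettes, so the sides overlapped and the difference of 2.84 ± 1.61 did not pass (adjusted p = 0.485).

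Of 7 measured simple-epithelial keratins 4 were called higher (median 1.81). Krt8 read 13.36 in OSKM, 13.43 in OK+9MS, 12.88 in MKOS and 13.39 in OKN-HAMS, against 11.61 in OKMS, 9.18 in STEMCCA, 9.35 in EB-C5 and 9.24 in WTSI. The long cassettes lay within 1 log2 unit of each other, while on the short side OKMS stood alone above the other three. The difference was 3.42 ± 0.53 (adjusted p = 0.022). Its partner Krt18 was higher by 1.81 ± 0.28, Krt19 by 2.83 ± 0.47 and Krt80 by 2.68 ± 0.23. The call of Krt8 was lost without OSKM, OK+9MS, OKN-HAMS, EB-C5 or WTSI (the lowest of these differences was 3.22), that of Krt18 without OSKM, OK+9MS, OKN-HAMS, OKMS or EB-C5 (1.53 to 2.09 over all alternatives), and that of Krt19 without OSKM, OK+9MS, OKN-HAMS, EB-C5 or WTSI (2.48 to 3.14 over all alternatives). Krt18 and Krt19 also lost their calls without the 3 OKMS-built cassettes, where Krt8 kept its call. Krt80 was called in all 16 alternatives tried.

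Other large differences were in genes outside the keratins, several of them for membrane and secreted proteins. Nccrp1, named for a receptor of cytotoxic cells but known to be an F-box-associated protein, had the smallest adjusted p together with Erbb3. It read 11.62 in OSKM, 11.16 in OK+9MS, 11.44 in MKOS and 11.21 in OKN-HAMS, against 6.91 in OKMS, 6.41 in STEMCCA, 6.996 in EB-C5 and 6.61 in WTSI. Both sides were tight and lay more than 4 log2 units apart (4.62 ± 0.16, adjusted p = 3.98e-05). Dkkl1, a Dickkopf-like secreted protein known from the acrosome of sperm, read 12.35 in OSKM, 11.85 in OK+9MS, 11.62 in MKOS and 11.98 in OKN-HAMS, against 8.61 in OKMS, 6.65 in STEMCCA, 6.58 in EB-C5 and 6.41 in WTSI. OKMS was again the highest short cassette, and the difference was 4.89 ± 0.48 (adjusted p = 0.00329).

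Mal2 (4.87 ± 0.45) and its relative Mall (4.22 ± 0.23), raft proteins of which Mal2 serves transcytosis in epithelial cells, were higher without overlap. So were the small Ly6-family proteins Ly6g6c (4.92 ± 0.65) and Slurp1 (4.34 ± 0.20), the second a secreted protein of the skin. The Kazal-type protease inhibitor Spink2 (3.78 ± 0.20), the GPI-anchor remodelling gene Cwh43 (3.73 ± 0.22) and the lipoxygenase Alox12b (3.81 ± 0.63) completed the 15 largest. Cwh43 and Alox12b lost their calls without the 3 OKMS-built cassettes. Alox12b makes lipids of the epidermal barrier. In it MKOS (8.48) lay well below the other long cassettes (10.71 to 11.57), and its call was lost without OSKM, OK+9MS, OKN-HAMS, OKMS, STEMCCA, EB-C5 or WTSI (3.25 to 4.49 over all alternatives). That of Ly6g6c was lost without OSKM or OK+9MS (4.53 to 5.61 over all alternatives). Erbb3, a neuregulin receptor, read 10.03 in OSKM, 10.05 in OK+9MS, 9.73 in MKOS and 9.96 in OKN-HAMS, against 7.32 in OKMS, 6.99 in STEMCCA, 7.21 in EB-C5 and 7.15 in WTSI, which gave a difference of 2.78 ± 0.10 (adjusted p = 3.98e-05).

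**Figure D2:**
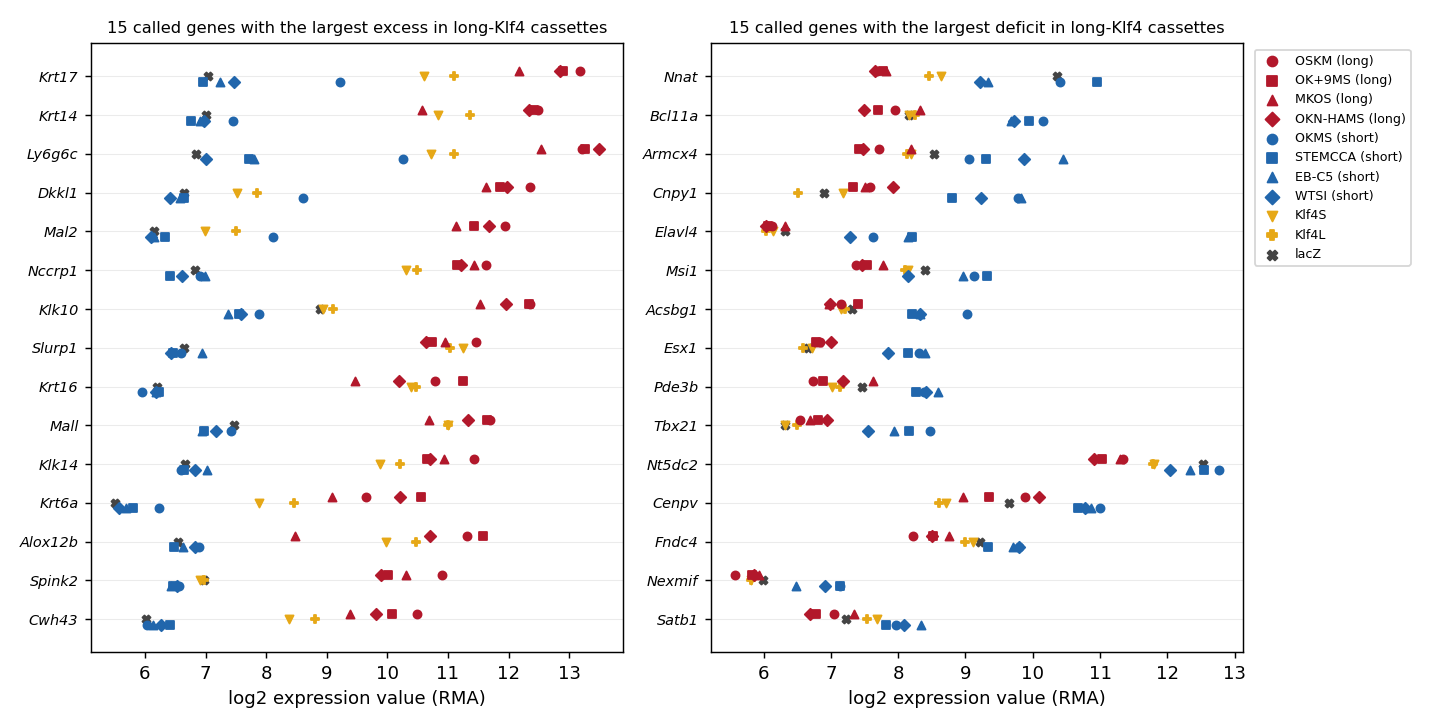
Log2 expression values (RMA) on every array for the 15 called genes with the largest excess (left) and the 15 with the largest deficit (right) in long-Klf4 cassettes. Each point is 1 array; red points (long) and blue points (short) do not overlap in any row, and OKMS is often the short cassette nearest to the red points in the left panel.

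Genes of the cornified envelope followed. Tgm1, the transglutaminase that cross-links the envelope, read 11.20 in OSKM, 11.62 in OK+9MS, 10.68 in MKOS and 11.43 in OKN-HAMS, against 8.10 in OKMS, 7.76 in STEMCCA, 7.45 in EB-C5 and 7.40 in WTSI. The sides were more than 2.5 log2 units apart and the difference was 3.56 ± 0.23 (adjusted p = 0.000566). Sprr1a, a small proline-rich envelope precursor, read 12.20 in OSKM, 11.27 in OK+9MS, 12.55 in MKOS and 10.17 in OKN-HAMS, against 7.94 in OKMS, 8.13 in STEMCCA, 7.59 in EB-C5 and 7.75 in WTSI. OKN-HAMS was the lowest long cassette here, and the difference was 3.70 ± 0.48 (adjusted p = 0.0114). Sprr1b (2.996 ± 0.21) and Sprr3 (2.91 ± 0.30) were higher too, and Sprr1b, Sprr3 and Sprr1a are neighbours on chromosome 3. In all, 8 of 20 measured envelope genes were called higher and none lower (median 0.87). Loricrin (Lor, 0.35, adjusted p = 0.242), a main protein of the mature envelope, was among the 12 others. Krtdap (3.16 ± 1.05, adjusted p = 0.204) did not pass either, with OKMS at 10.19 against 5.59 to 6.18 on the other short cassettes.

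Kallikrein-related peptidases, secreted serine proteases of which several act in the shedding of the skin's outer cells, gave the longest run of neighbouring calls on the array. The genes Klk14, Klk13, Klk12, Klk11, Klk10, Klk9 and Klk8 lie next to each other on chromosome 7, and all 7 were called higher with long Klf4. Klk10 read 12.35 in OSKM, 12.33 in OK+9MS, 11.53 in MKOS and 11.96 in OKN-HAMS, against 7.89 in OKMS, 7.56 in STEMCCA, 7.38 in EB-C5 and 7.59 in WTSI. Klk14 read 11.43 in OSKM, 10.66 in OK+9MS, 10.94 in MKOS and 10.71 in OKN-HAMS, against 6.59 in OKMS, 6.64 in STEMCCA, 7.03 in EB-C5 and 6.83 in WTSI. In both genes the long cassettes were at least 3.6 log2 units above every short one. The differences were 4.44 ± 0.20 and 4.16 ± 0.18 (adjusted p = 0.000128 for both).

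The 5 genes between or beside these peaks moved less: Klk11 by 2.09 ± 0.11 (a lower bound, from 5.67), Klk12 by 1.70 ± 0.22, Klk8 by 1.69 ± 0.21, Klk13 by 0.99 ± 0.15 and Klk9 by 0.73 ± 0.12. The next genes on the same side, Klk7 (0.27), Klk6 (0.29), Klk5 (0.03), Klk4 (0.01) and Klk15 (0.33), were not called. Of 19916 genes placed in order, 4 other runs of 3 neighbours were called in one direction, all higher: Krt14, Krt16 and Krt17 on chromosome 11, the Sprr genes named above, Adgrb1, Mroh4 and Arc on chromosome 15, and a run on chromosome 5 with Tmem211 and Sgsm1. Neighbouring genes of 1 family can share probe sequence, which was not tested.

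**Figure D3:**
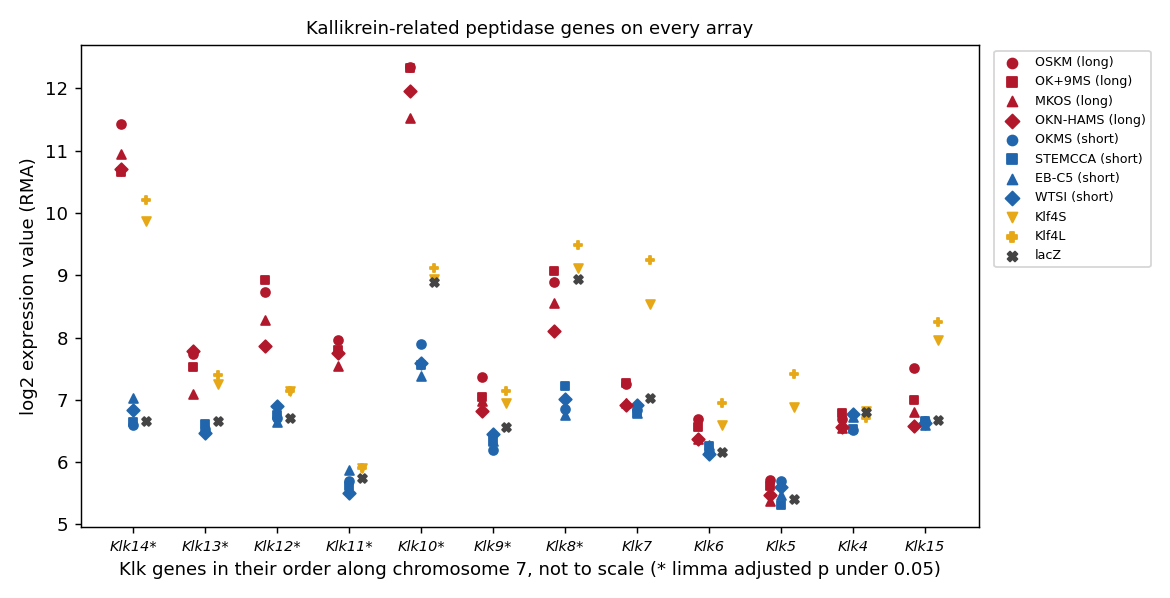
Log2 expression values (RMA) of the Klk genes on every array, in their order along chromosome 7 and not to scale. Red (long) and blue (short) points lie apart for the 7 called genes from Klk14 to Klk8, marked with an asterisk, and close together for the 5 that follow. Klk7, Klk5, Klk15 and the called Klk8 are highest with Klf4 alone (yellow).

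Promoters are shown for the peaks of this run, for Krt14 and Dkkl1 among the largest increases and for Bcl11a among the decreases, because Klf4 binds DNA and its known motif can be looked for in them. The sequences are the 250 bases before the start of each gene, from RefSeq (GRCm38.p6), written 5′ to 3′ on the gene's strand. Capitals mark matches to GGGNGTG on either strand (CACNCCC on the other), the core of the published Klf4 motif.
Klk10, chr7:43780804-43781053, plus strand: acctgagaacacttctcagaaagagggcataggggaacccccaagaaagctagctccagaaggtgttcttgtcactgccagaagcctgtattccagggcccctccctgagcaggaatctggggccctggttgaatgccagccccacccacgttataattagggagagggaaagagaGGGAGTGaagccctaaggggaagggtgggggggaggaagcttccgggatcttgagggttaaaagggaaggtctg
Klk14, chr7:43690168-43690417, plus strand: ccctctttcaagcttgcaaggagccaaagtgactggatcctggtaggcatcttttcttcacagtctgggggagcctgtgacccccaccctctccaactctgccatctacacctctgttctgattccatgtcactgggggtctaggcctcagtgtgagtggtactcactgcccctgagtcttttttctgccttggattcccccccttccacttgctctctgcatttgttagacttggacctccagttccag
Krt14, chr11:100206031-100206280, minus strand: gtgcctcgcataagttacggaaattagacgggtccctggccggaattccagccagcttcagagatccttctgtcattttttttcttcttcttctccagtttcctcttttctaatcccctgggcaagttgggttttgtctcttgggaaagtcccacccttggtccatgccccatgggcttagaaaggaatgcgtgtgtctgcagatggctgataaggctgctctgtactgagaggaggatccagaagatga
Dkkl1, chr7:45211884-45212133, minus strand: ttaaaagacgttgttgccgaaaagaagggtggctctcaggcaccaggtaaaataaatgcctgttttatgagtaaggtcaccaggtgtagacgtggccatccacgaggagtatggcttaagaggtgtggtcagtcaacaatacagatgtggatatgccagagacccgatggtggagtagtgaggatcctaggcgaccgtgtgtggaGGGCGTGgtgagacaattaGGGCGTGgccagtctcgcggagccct
Bcl11a, chr11:24080445-24080694, plus strand: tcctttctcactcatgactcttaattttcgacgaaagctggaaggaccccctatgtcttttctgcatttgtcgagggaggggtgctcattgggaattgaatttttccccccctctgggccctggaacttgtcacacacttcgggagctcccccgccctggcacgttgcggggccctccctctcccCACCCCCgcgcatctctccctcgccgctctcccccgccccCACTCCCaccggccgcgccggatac
Klk10 held 1 match, at -74 from its start. Klk14, which moved about as far, and Krt14 held none. Dkkl1, much higher with long Klf4, held matches at -45 and -26, and Bcl11a, lower with long Klf4, at -65 and -25. In windows of 300 bases (250 before and 50 after the start) the letters were found in 29.2% of all 32851 windows. By window, the share was 32.9% of 19177 for measured genes, 40.7% of 398 for genes called higher and 40.0% of 125 for those called lower. A gene with several windows was counted as a match if any of them held one. By gene, 36.1% (of 15614) of measured genes with a window held a match, against 45.8% of the 301 called higher and 48.2% of the 85 called lower. The shares were close in both directions, and base composition, which sets how often such letters occur, was not tested.

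Of 28 measured adhesion and polarity genes of epithelia 12 were called higher and none lower, with a median of 1.10. The list's mean level ran from 8.80 (MKOS) to 9.28 (OKN-HAMS) with long Klf4 and from 7.37 (WTSI) to 8.20 (OKMS) with short Klf4. Cldn4, a claudin of tight junctions, read 11.09 in OSKM, 11.17 in OK+9MS, 10.27 in MKOS and 10.83 in OKN-HAMS, against 8.20 in OKMS, 7.77 in STEMCCA, 7.79 in EB-C5 and 7.25 in WTSI. The sides were 2 log2 units apart and the difference was 3.09 ± 0.25 (adjusted p = 0.00138). The adaptor subunit Ap1m2 (2.54 ± 0.41), which sorts proteins to the basolateral membrane, the membrane protease St14 (2.50 ± 0.41) and the recycling GTPase Rab25 (2.42 ± 0.47) were higher as well, and the tight-junction proteins Ocln (2.02) and Cldn7 (1.86) were among the others called. The call of Ap1m2 was lost without OSKM, OK+9MS, STEMCCA, EB-C5 or WTSI (2.24 to 2.83 over all alternatives), that of St14 without OSKM, OK+9MS, OKN-HAMS, STEMCCA or EB-C5 (2.22 to 2.89 over all alternatives) and that of Rab25 without OSKM, OK+9MS, OKN-HAMS, OKMS, STEMCCA, EB-C5 or WTSI (2.12 to 2.91 over all alternatives). Without OKMS, OK+9MS and OKN-HAMS, at 2 cassettes against 3, 1 of the 28 was called, at a median of 1.27. Cldn4, Ap1m2, St14 and Rab25 were not called there. The calls in the other epithelial lists then fell to 2 of 7 simple keratins, 2 of 11 basal and stress keratins and 5 of 20 envelope genes. Of the desmosome and gap junction genes 1 of 13 was called, and of the regulators 0 of 18.

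Cdh1, E-cadherin and the usual mark of the transition, did not pass. It read 11.46 in OSKM, 11.40 in OK+9MS, 11.03 in MKOS and 11.39 in OKN-HAMS, against 10.10 in OKMS, 9.63 in STEMCCA, 7.43 in EB-C5 and 7.65 in WTSI. All long cassettes were above all short ones, but the short side was split, with OKMS and STEMCCA about 2 log2 units above EB-C5 and WTSI, and the difference of 2.62 ± 0.61 had an adjusted p of 0.0789. Epcam was similar, at 10.37 in OSKM, 9.997 in OK+9MS, 9.81 in MKOS and 10.53 in OKN-HAMS, against 9.26 in OKMS, 8.17 in STEMCCA, 7.99 in EB-C5 and 6.82 in WTSI (2.12 ± 0.47, adjusted p = 0.0669). Both passed when OKMS was left out, with differences of 3.09 for Cdh1 and 2.52 for Epcam.

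Desmosomes are the spot junctions that anchor keratins. Of 13 measured desmosome and gap junction genes 6 were called higher and none lower (median 1.17). The desmoglein Dsg3 read 9.12 in OSKM, 9.28 in OK+9MS, 9.05 in MKOS and 8.21 in OKN-HAMS, against 5.33 in OKMS, 5.50 in STEMCCA, 5.61 in EB-C5 and 5.78 in WTSI. The short side was at background, so the difference of 3.36 ± 0.23 (adjusted p = 0.000641) is a lower bound. Dsc2 (2.34 ± 0.35), the plakophilin Pkp1 (2.09 ± 0.25) and the gap junction protein Gjb5 (1.46 ± 0.17) were called too, Dsc2 not without OSKM or OK+9MS (2.07 to 2.63 over all alternatives), and none of the 3 without the OKMS-built cassettes. The plaque protein Dsp (1.96 ± 0.48, adjusted p = 0.0915) was not, with STEMCCA at 7.72 and the other short cassettes at 9.76 to 9.89.

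Of 18 measured transcription and splicing regulators of the epithelial state 2 were called higher (11.1%, against 2.02% of all genes), with a median of 0.24, and 8 (44.4%, against 14.8%) had an unadjusted p under 0.05. Among the 8 regulators whose mean over all cassettes lay above the median gene's level 4 were called, with a median of 1.525. The long-Klf4 arrays helped to choose these 8, so that count tests nothing. Ovol1, a zinc-finger factor of epidermal differentiation, read 9.11 in OSKM, 9.06 in OK+9MS, 8.45 in MKOS and 8.996 in OKN-HAMS, against 7.12 in OKMS, 6.40 in STEMCCA, 6.92 in EB-C5 and 6.42 in WTSI (2.19 ± 0.21, adjusted p = 0.0031), a call lost without the OKMS-built cassettes. Grhl3, a grainyhead factor of the epidermal barrier, was higher by 1.28 ± 0.25 and lost its call after quantile normalization and without OSKM, OK+9MS, MKOS, OKN-HAMS, OKMS, EB-C5 or WTSI (1.11 to 1.44 over all alternatives). That call was lost without the OKMS-built cassettes too. The splicing regulator Esrp1 (2.60 ± 0.73, adjusted p = 0.139) and the Ets factor Ehf (2.74 ± 0.68, adjusted p = 0.0953) had larger differences that did not pass. Trp63, the master regulator of stratified epithelia, differed by 0.01 without a call (adjusted p = 0.98).

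**Figure D4:**
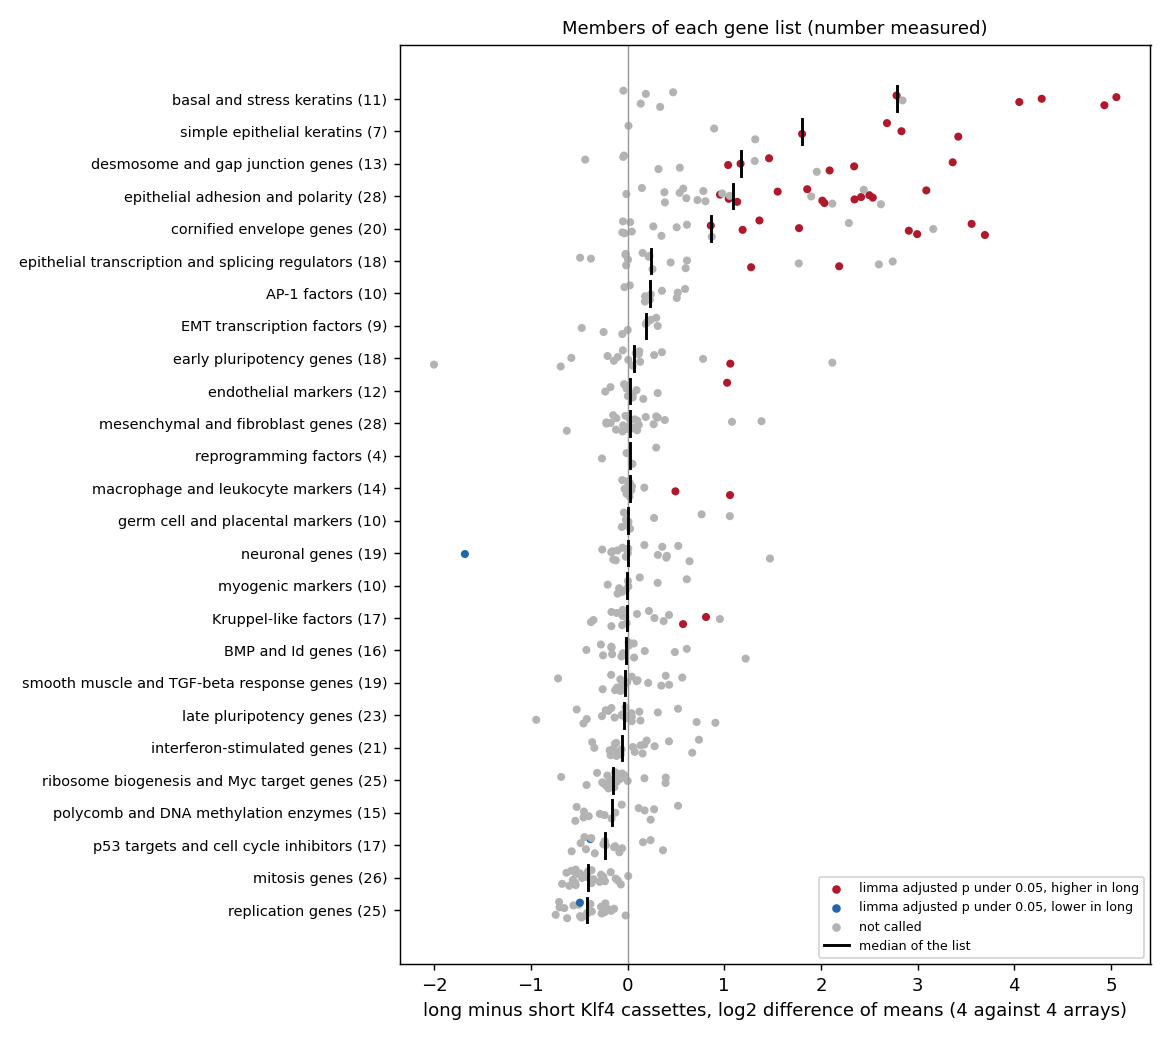
Log2 difference, long minus short Klf4 cassettes (4 against 4 arrays), for each measured member of 26 gene lists, with black bars at the list medians. The 6 lists with the highest medians are the epithelial ones, whose called members (red) are all higher in long; the lists below them sit around 0, and mitosis and replication genes lie left of it with 1 member called.

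Mesenchymal genes gave no call in either direction. The 28 measured mesenchymal and fibroblast genes had a median of 0.02, and the list's mean level ran from 10.06 to 10.95 with long and from 10.20 to 10.97 with short Klf4. Cdh2, N-cadherin, read 9.98 in OSKM, 10.13 in OK+9MS, 10.56 in MKOS and 9.32 in OKN-HAMS, against 10.16 in OKMS, 11.07 in STEMCCA, 10.66 in EB-C5 and 10.60 in WTSI. Those ranges overlapped (difference -0.63 ± 0.28, adjusted p = 0.362). The largest differences of the list were positive: Dcn, a proteoglycan of the matrix, at 1.39 ± 0.36 with every long cassette above every short one (adjusted p = 0.113), and S100a4 at 1.08 ± 0.30 (adjusted p = 0.141). The difference was -0.01 for Col1a1 and -0.05 for Vim. Among 9 transcription factors that drive the opposite transition none was called (median 0.19): Zeb1 differed by 0.00, Zeb2 by -0.47, Snai1 by -0.05, Snai2 by -0.25 and Twist1 by 0.31. Smooth muscle and TGF-beta response genes gave 0 calls of 19 (median -0.02), with Acta2 at -0.07 and the receptors Tgfbr1 at -0.72 (adjusted p = 0.196) and Tgfbr2 at 0.57 (adjusted p = 0.498). At an unadjusted p under 0.05 the numbers were 3 of 28 (10.7%), 0 of 9 and 1 of 19 (5.26%), against 14.8% of all genes.

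Among pluripotency genes the sides mostly overlapped. Of 18 early genes Cd9, a tetraspanin, was called higher (1.06 ± 0.17, adjusted p = 0.0243), or 5.56% against 2.02% of all genes. None of 23 late genes was called, and the medians were 0.07 and -0.04. An unadjusted limma p under 0.05 was seen in 16.7% of the early and 8.7% of the late list, against 14.8% of all genes. The widest differences of the early list, Epcam at 2.12 and Fut9 at -2.001, did not pass. The call of Cd9 was lost without OSKM, OK+9MS or WTSI and without the 3 OKMS-built cassettes (0.90 to 1.19 over all alternatives). Nanog read 9.93 in OSKM, 9.20 in OK+9MS, 7.92 in MKOS and 9.87 in OKN-HAMS, against 11.05 in OKMS, 10.60 in STEMCCA, 9.76 in EB-C5 and 7.33 in WTSI. The highest and the lowest of the 8 were both short-Klf4 cassettes, OKMS and WTSI (difference -0.46 ± 0.84, adjusted p = 0.872). Esrrb (0.91, adjusted p = 0.0987) and Nr0b1 (-0.94, adjusted p = 0.783) had the largest differences among late genes without passing. Lin28a was at 11.66 in EB-C5 and at 6.74 to 8.52 in the other 7 cassettes.

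Cell division genes had medians below that of all genes. In the mitosis list the median was -0.41 with none of 26 called, and in the replication list -0.42 with 1 of 25 called, E2f1 (-0.49 ± 0.09, adjusted p = 0.0411). Among the 8 cassettes both lists had their lowest mean level in MKOS (9.20 and 9.01). With Klf4 alone the means were lower still. The mitosis list averaged 8.044 in Klf4S and 8.065 in Klf4L, and the replication list 8.244 and 8.207. Without MKOS the medians were -0.24 and -0.15, and no member was called. Without the 3 OKMS-built cassettes the medians were -0.59 and -0.56, again with no call. An unadjusted limma p was under 0.05 for 23.1% of the mitosis and 12% of the replication list, against 14.8% of all genes. The call of E2f1 was lost with an intensity trend, among genes above the median level and without OSKM, OK+9MS, MKOS, OKMS, STEMCCA, EB-C5 or WTSI (-0.57 to -0.43 over all alternatives). The mitotic kinases Aurkb (-0.68, adjusted p = 0.35) and Ttk (-0.63, adjusted p = 0.226) had the largest differences of the first list. Ribosome biogenesis and Myc target genes had 0 of 25 called (median -0.15). Of 17 p53 targets and cell cycle inhibitors Sesn2 was lower (-0.38 ± 0.08), and Cdkn2a differed by -0.58 (adjusted p = 0.361). The call of Sesn2 was lost without any 1 of the 8 cassettes and without the 3 OKMS-built ones. It was also lost after quantile normalization, with an intensity trend and among genes above the median level.

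Of 17 Kruppel-like factors 2 were called higher (11.8%, against 2.02% of all genes). Klf10 (0.81 ± 0.16, adjusted p = 0.0462) and Klf3 (0.57 ± 0.09, adjusted p = 0.0254) passed, around a list median of -0.01. The first call was lost with arrays centred, after quantile normalization and without OSKM, OK+9MS, OKN-HAMS, OKMS, EB-C5 or WTSI (0.67 to 0.90 over all alternatives), and the second without OSKM, OK+9MS, OKN-HAMS, STEMCCA, EB-C5 or WTSI (0.51 to 0.64 over all alternatives). Both calls were also lost without the 3 OKMS-built cassettes. AP-1 factors (0 of 10 called, median 0.24), BMP and Id genes (0 of 16, -0.02), interferon-stimulated genes (0 of 21, -0.06) and polycomb and DNA methylation enzymes (0 of 15, -0.16) gave no call. Their largest differences were Atf3 (0.60), Bmp2 (1.22), Xaf1 (0.74) and Ezh2 (-0.54). An unadjusted limma p under 0.05 was seen in 40% of the polycomb and DNA methylation list, against 14.8% of all genes. It was seen in 10% of AP-1 factors, 12.5% of BMP and Id genes and 9.52% of interferon-stimulated genes. Among markers of other cell types, Cd68 (1.06 ± 0.21) and Itgam (0.50 ± 0.06, a lower bound from 5.94) of 14 leukocyte genes (14.3%) and Eng (1.03 ± 0.19) of 12 endothelial genes were higher. Cd68 lost its call with arrays centred, after quantile normalization and without OSKM, OK+9MS, OKN-HAMS, OKMS, STEMCCA or EB-C5 (0.93 to 1.25 over all alternatives), and Eng without OSKM, OK+9MS, OKN-HAMS, OKMS, STEMCCA, EB-C5 or WTSI (0.91 to 1.19 over all alternatives). Cd68, Itgam and Eng all lost their calls without the 3 OKMS-built cassettes. The other defining leukocyte markers stayed low, and the mean of the leukocyte list ran from 6.31 to 6.44 with long and from 6.19 to 6.30 with short Klf4. Their part in the other differences was not tested. Neither 10 myogenic nor 10 germ cell and placental genes gave a call.

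The largest decreases with long Klf4 were in genes of varied kinds. Nnat, an imprinted membrane protein of neural and endocrine cells, read 7.68 in OSKM, 7.78 in OK+9MS, 7.83 in MKOS and 7.65 in OKN-HAMS, against 10.40 in OKMS, 10.95 in STEMCCA, 9.34 in EB-C5 and 9.22 in WTSI. The long cassettes lay within 0.2 log2 units of each other, and the short ones were at least 1.3 units higher (-2.24 ± 0.38, adjusted p = 0.0272). The call was lost without OSKM, OK+9MS, OKN-HAMS or OKMS and without the 3 OKMS-built cassettes (-2.50 to -1.92 over all alternatives). Bcl11a, a zinc-finger repressor known for the silencing of fetal globin, read 7.95 in OSKM, 7.70 in OK+9MS, 8.33 in MKOS and 7.49 in OKN-HAMS, against 10.15 in OKMS, 9.94 in STEMCCA, 9.68 in EB-C5 and 9.72 in WTSI. The sides did not overlap (-2.01 ± 0.19, adjusted p = 0.00298), and the call was lost without the 3 cassettes of the OKMS family (-1.64, adjusted p = 0.0628). Elavl4, an RNA-binding protein of neurons, read 6.12 in OSKM, 6.06 in OK+9MS, 6.32 in MKOS and 6.04 in OKN-HAMS, against 7.63 in OKMS, 8.21 in STEMCCA, 8.14 in EB-C5 and 7.29 in WTSI. The long side was near background and the difference was -1.68 ± 0.20 (adjusted p = 0.0092).

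Of the 19 neuronal genes listed Elavl4 was the 1 called, around a median of 0.00. The RNA-binding protein Msi1 (-1.36 ± 0.24) of neural progenitors, the X-linked placental homeobox gene Esx1 (-1.32 ± 0.12), the acyl-CoA synthetase Acsbg1 (-1.34 ± 0.19), the phosphodiesterase Pde3b (-1.31 ± 0.19) and the T-box factor Tbx21 (-1.28 ± 0.19) of T helper cells were lower too. Armcx4 (-1.97 ± 0.32), Cnpy1 (-1.82 ± 0.24), Nt5dc2 (-1.27 ± 0.17), Cenpv (-1.25 ± 0.24), the secreted Fndc4 (-1.16 ± 0.14), Nexmif (-1.11 ± 0.16, a lower bound in size) and the chromatin organizer Satb1 (-1.09 ± 0.17) completed the 15 largest decreases. Of these 15, Bcl11a, Elavl4, Esx1 and Fndc4 kept their calls without any 1 cassette and lost them without the 3 OKMS-built ones. Each of the others lost its call without at least 1 cassette, most often OK+9MS or OSKM. Fut9, a fucosyltransferase of the stem cell antigen SSEA-1, had a difference of -2.001 ± 0.42 that did not pass (adjusted p = 0.0553).

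The cassettes of a side were not alike. Among the 403 higher genes OKMS was the short cassette nearest to the long side for 155 (38.5%), WTSI for 95, STEMCCA for 86 and EB-C5 for 67. On the long side MKOS was nearest to the short cassettes for 205 (50.9%), OKN-HAMS for 119, OK+9MS for 55 and OSKM for 24. MKOS lay at least 2-fold below the other 3 long cassettes in 77 genes and above them in 18, and OKN-HAMS below in 71 and above in 22. OSKM (2 and 7) and OK+9MS (1 and 4) rarely stood apart. Among short cassettes OKMS was above the other 3 in 71 genes and STEMCCA in 89.

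The genes that stood farthest apart in each cassette were of various kinds. In MKOS they were Krt6b, Crybg1 (low, 8.01 against 10.46 to 11.35) and the carboxylesterase Ces1f (high, 10.37 against 6.77 to 7.37). In OKMS they were Krt6b, Krtdap and the embryonic stem cell gene Utf1, at 10.89 against 6.64 to 7.25 on the other short cassettes. In OKN-HAMS the limb homeobox gene Hoxd13 (7.17), Moxd1 (7.03) and the enkephalin precursor Penk (10.87) were each about 2 log2 units lower than in any other long cassette. STEMCCA had low neurofilament Nefl and Fc receptor Fcgr2b (6.74) beside low Dsp. EB-C5 had high Lin28a and Fbxo15 and low Cnn1, and WTSI low Nanog, low Apela (9.44) and high Fosb (10.90). In OSKM Unc13c (9.94) and Krt7 (9.35) were high and Mtres1 low, and in OK+9MS Idi2, Rtl1 (10.01) and Sh2d1b1 (7.53) were high.

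Klf4 without the other factors, short or long, was the next context. None of 19938 genes differed by 2-fold between the Klf4L and Klf4S arrays, and the SD of that difference over genes was 0.126 on the log2 scale. Of the 403 genes higher in long-Klf4 cassettes 212 (52.6%) were higher in Klf4L than in Klf4S, against 41.2% of all genes, with a median difference of 0.01. Of the 101 lower genes 52 (51.5%) were lower in Klf4L, against 56.6% of all genes. Larger same-direction differences were seen for Sprr1b (0.76), Khdc1a (0.74), Cnpy1 (-0.67), Sprr2b (0.61), Krt6a (0.58) and Dio3 (0.57). These are single arrays with no test.

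The difference between the sides less that between Klf4L and Klf4S was tested over the 10 arrays of day 6, with the lone Klf4 arrays assumed to vary like the cassettes. No spread was measured for Klf4 alone, so these p-values rest on that assumption. The test passed for 2 genes (0.01% of all), Nccrp1 (4.43 ± 0.35) and Erbb3 (2.58 ± 0.21), each at a limma adjusted p of 0.0292, and 735 genes (3.69%) had an unadjusted p under 0.05. No gene passed without OK+9MS, OKN-HAMS, STEMCCA, EB-C5 or WTSI, while 4 passed without OSKM, Erbb3 not among them, 7 without OKMS and 9 without MKOS. For all other genes the gap between cassettes was not shown to differ from that between the Klf4 forms alone.

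**Figure D5:**
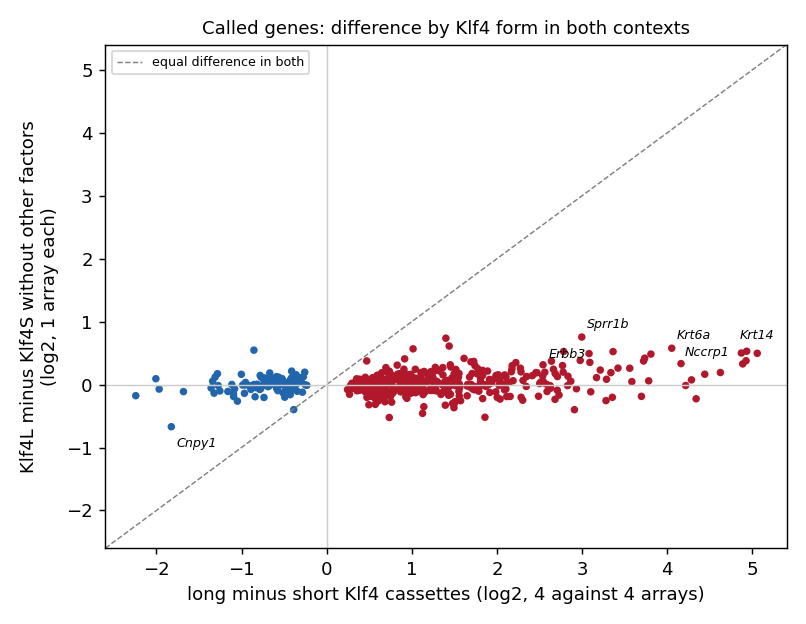
For the 504 called genes, the difference between long and short Klf4 in cassettes (horizontal, log2, 4 against 4 arrays) and between Klf4L and Klf4S alone (vertical, log2, 1 array each), on equal scales. Points lie along the horizontal line at 0 and away from the dashed line of equal differences; no point reaches 1 or -1 on the vertical axis.

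Genes differed in where their levels with Klf4 alone lay. Of the 231 higher genes with at least 2-fold between the sides, the mean of Klf4S and Klf4L was nearer to the short-cassette mean for 133 (57.6%) and to the long-cassette mean for 98 (42.4%). Of the 403 higher genes the mean of Klf4S and Klf4L was at least 2-fold above the short-cassette mean for 95 (23.6%, against 3.47% of all genes), within 2-fold of it for 305 (75.7%, against 92.9% of all genes), and at or above the long-cassette mean for 65 (16.1%). Slurp1 belonged to the last kind, with 11.25 in Klf4S, 11.03 in Klf4L and 6.65 in lacZ, as did Krt16 (10.39 in Klf4S, 10.46 in Klf4L and 6.21 in lacZ), whose long-cassette mean was 10.42. Spink2 showed the other pattern, with 6.91 in Klf4S, 6.97 in Klf4L and 6.97 in lacZ against 9.90 to 10.91 in long-Klf4 cassettes. Klk10 (8.95 in Klf4S, 9.11 in Klf4L and 8.89 in lacZ) also stayed nearer to the short-cassette mean. So did Erbb3 (7.71 in Klf4S, 7.91 in Klf4L and 6.89 in lacZ). Klk14 (9.87 in Klf4S, 10.21 in Klf4L and 6.66 in lacZ) was nearer to the long-cassette mean. With either Klf4 form alone, Klk10, Erbb3 and Klk14 all lay above every short cassette. Of the 101 lower genes the Klf4 alone mean was at least 2-fold below the short-cassette mean for 26 (25.7%, against 3.68% of all genes). It was at or below the long-cassette mean for 38 (37.6%). Among the 19 lower genes with at least 2-fold, it was nearer to the long-cassette mean for 17 (89.5%) and to the short-cassette mean for 2 (10.5%). Shares nearer to a side, or at or beyond the long-cassette mean, were not counted over all genes. The short cassettes also chose these genes, so the shares describe levels and test nothing.

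In lacZ cells, harvested on day 2 without a sort, 362 of the 403 (89.8%) were within 2-fold of the short-cassette mean, 21 (5.21%, against 2.65% of all genes) lay at least 2-fold above it and 20 (4.96%, against 1.91%) at least 2-fold below. Of all genes 95.4% were within 2-fold of that mean. Of the 101 lower genes 93 (92.1%, against 94.3% of all genes) were within 2-fold of the long-cassette mean in lacZ and 85 (84.2%) within 2-fold of the short one, with 16 (15.8%) at least 2-fold below the short one. Elavl4 read 6.14 in Klf4S, 6.03 in Klf4L and 6.33 in lacZ and Esx1 6.72 in Klf4S, 6.58 in Klf4L and 6.66 in lacZ, near the long-Klf4 cassettes, while Nnat in lacZ (10.37) was near the short ones. In lacZ cells the harvest day, the missing sort and the absence of Klf4 cannot be told apart.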

How the data were processed

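RNA of reprogramming mouse fibroblasts was profiled on 11 Affymetrix mouse gene arrays, 1 per construct. The authors deposited log2 values made with RMA for 28856 probe sets, per the submitters' processing notes, and these were used as deposited. No other step is stated in the sources used here. Probe sets with 1 gene symbol in the platform annotation (21789) were reduced to 19938 genes, by the highest mean where a gene had several (999 genes). The 4 cassettes with long and the 4 with short Klf4 were compared with limma 3.58.1 (lmFit and eBayes, R 4.3.3) at a Benjamini-Hochberg adjusted p under 0.05 over all genes. Each ± is the moderated standard error from limma, with 6 residual degrees of freedom from the arrays. Differences between contexts were tested in 1 fit over the 10 day-6 arrays. Members and gene lists were chosen with earlier results of these data known.

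The text names, among called genes, the 15 highest and the 15 lowest by their difference, up to 4 called members of each list, or 2 members of a list with none, fixed marker and factor genes, the 3 genes farthest apart in each cassette, up to 8 called genes with the largest Klf4L minus Klf4S difference, and genes called between contexts. Members of called neighbour runs, families, Lor, Ocln, Cldn7, Trp63, Fut9, Krt6b, Krt7 and a few list members near the threshold were added after their values were seen. Predicted genes were counted and not named (18 of the higher, 4 of the lower). Alternatives were all 11 arrays in the fit, filters on low values, centring, quantile normalization, the mean of probe sets, an intensity trend, probe sets tested separately, and fits without single cassettes or without the 3 built on OKMS.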

Additional observations from a re-analysis of the deposited data

Results flagged for a closer look

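Among 246 groups of 4 arrays, each a gene and a side, 28 held an array that stood apart from its other 3 by Dixon's test at the 95% level. Chance gives about 1 in 20 such groups, and 10 of the 28 were in genes chosen because a cassette stood apart in them.

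On the long side MKOS was apart most often, and below the other 3 cassettes in 6 of its 7 genes. It was low in the keratins Krt14 (10.57 against 12.34 to 12.48), Krt18 (8.38 against 9.45 to 9.65) and Krt8 (12.88 against 13.36 to 13.43), in Cdh1 (11.03 against 11.39 to 11.46), in the lysosomal Cd68 (9.16 against 9.60 to 9.62) and in the peptide hormone gene Apela (10.97 against 11.53 to 11.64), and high in Ces1f (10.37 against 6.77 to 7.37). All 4 of the named epithelial genes still exceeded every short cassette there. OKN-HAMS was low in the fibroblast genes Acta2 (12.38 against 13.14 to 13.23) and Dcn (11.62 against 12.54 to 12.61) and high in Grhl3 (9.78 against 9.14 to 9.21). OK+9MS was high in Idi2 (7.39 against 5.63 to 5.90) and low in Xaf1 (8.98 against 9.29 to 9.34), and OSKM low in Mtres1 (8.55 against 9.91 to 10.18).

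On the short side OKMS was above the other 3 in each of its 7 genes, on the side of the long-Klf4 mean in 5 of them. These were Dkkl1 (8.61 against 6.41 to 6.65), Mal2 (8.11 against 6.11 to 6.33), Krt8 (11.61 against 9.18 to 9.35), Krt5 (7.15 against 6.85 to 6.88) and Krtdap (10.19 against 5.59 to 6.18). In Utf1 (10.89 against 6.64 to 7.25) it lay above every long cassette too. The remaining gene was Acsbg1 (9.02 against 8.20 to 8.33), which is lower with long Klf4. STEMCCA was low in Dsp (7.72 against 9.76 to 9.89), Nefl (8.89 against 11.53 to 11.77) and Mtres1 (9.23 against 9.93 to 10.07) and high in Snai2 (11.08 against 10.26 to 10.32). EB-C5 was high in Lin28a (11.66 against 6.74 to 6.96) and Fbxo15 (7.84 against 5.43 to 5.75) and low in Cnn1 (8.84 against 10.75 to 10.79) and Cd9 (9.65 against 10.26 to 10.38). No gene stood apart in WTSI.

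The difference between long and short Klf4 in cassettes exceeded that with Klf4 alone by 4.43 for Nccrp1 (4.62 and 0.19) and by 2.58 for Erbb3 (2.78 and 0.20), which passed limma's test with 1 array for each Klf4 form alone, assumed to vary like the cassettes. Neither passed without OK+9MS, OKN-HAMS, STEMCCA, EB-C5 or WTSI, nor Erbb3 without OSKM. Which feature of the cassettes or of the culture goes with these values was not tested.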

How the results depend on the processing

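No paired analysis was possible because each cassette was measured on a single array and the labels carry no replicate numbers. Leaving out 1 cassette at a time, the number of genes called ranged from 162 to 613, from 149 to 520 for higher and from 13 to 106 for lower genes, and the number called in the test between contexts from 0 to 9. Without OKMS, OK+9MS and OKN-HAMS together (an alternative with fewer arrays) 53 genes were called, 50 higher and 3 lower. The test between contexts called 5 genes at a mean of at least 6 and 12 with an intensity trend and robust prior. Centring arrays on their medians moved the higher share of calls from 80% to 72.3% and quantile normalization to 75.1%. The median of all genes was -0.02 as deposited, -0.083 centred and -0.028 after quantile normalization. Of the 61 called genes that the naming rule gave, 17 kept their call in all alternatives run, among them Krt17, Krt6a, Krt80, Klk10, Klk14, Dkkl1, Tgm1, Dsg3 and Erbb3. None of the 61 changed direction; called genes named outside the rule, such as Klk8, Ocln and Itgb4, were not followed. Centring ended the calls of Cd68, Khdc1a and Klf10, quantile normalization those of Cd68, Grhl3, Klf10 and Sesn2, and an intensity trend or a filter at the median gene those of E2f1 and Sesn2. Without OK+9MS 31 of them kept the call, without OSKM 33, and without the 3 OKMS-built cassettes 20. Cdh1 and Epcam, not called, passed without OKMS. Directions turned only in named genes without a call: without the OKMS-built cassettes Acta2 (0.13), Col1a1 (0.094), Fosb (-0.33), Lin28a (-0.60), Pou5f1 (-0.060) and Snai1 (0.061), centred Pou5f1 (-0.011) and Zeb1 (-0.060), and after quantile normalization Zeb1 (-0.041). With 1 cassette left out they turned in Acta2 (-0.19 to 0.13), Cnn1 (-0.74 to 0.14), Col1a1 (-0.17 to 0.16), Fcgr2b (-0.84 to 0.17), Fosb (-0.22 to 0.77), Klf4 (-0.10 to 0.085), Lin28a (-0.30 to 1.34), Mtres1 (-0.32 to 0.26), Nefl (-0.041 to 1.00), Nr0b1 (-1.53 to 0.049), Penk (-0.11 to 0.88), Pou5f1 (-0.23 to 0.22), Snai1 (-0.26 to 0.14), Sox2 (-0.48 to 0.036), Utf1 (-0.094 to 1.35), Vim (-0.11 to 0.0088) and Zeb1 (-0.23 to 0.28). The cause of these changes was not tested. A single array per cassette limits the precision, and 4227 of 19938 genes averaged under 6, where a difference may be masked by background.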

Other observations

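Some further gene families, picked after their values were seen and therefore without a test of their own, had several members among the genes called higher with long Klf4. Of all genes 2.02% were called higher. Hemidesmosomes, which fix basal keratinocytes to the basement membrane, had 5 of 8 measured genes called (median 1.03). The integrin chains Itgb4 (2.28 ± 0.40, limma adjusted p = 0.0322) and Itga6 (1.65 ± 0.11), which pair in this junction, the laminin chains Lamb3 (1.55 ± 0.09) and Lama3 (1.42 ± 0.21) and the tetraspanin Cd151 (0.63 ± 0.08) were higher. Enzymes and transporters of barrier lipids had 5 of 17 called (median 0.41): the lipoxygenases Alox12b and Aloxe3 (1.52 ± 0.21), the sulfotransferase Sult2b1 (2.59 ± 0.42), the triglyceride enzyme Dgat2 (2.18 ± 0.31) and the lipid transporter Abca12 (2.14 ± 0.26, a lower bound from 5.94).

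All 3 subunits of the epithelial sodium channel were called, Scnn1a (1.74 ± 0.24, limma adjusted p = 0.0148), Scnn1b (1.76 ± 0.16) and Scnn1g (1.37 ± 0.24), the last 2 as lower bounds because the short side averaged under 6. Clade B serpins, intracellular protease inhibitors, had 4 of 24 called, with Serpinb6c (3.29 ± 0.23) and Serpinb5 (3.17 ± 0.18, a lower bound from 5.17), known as maspin, ahead. Over the whole keratin family 9 of 52 measured genes were called, at a median of 0.06, and over the claudins 3 of 28, at 0.02. Both shares lay above the 2.02% of all genes, though most members of either family gave no call.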
